A study of Mus musculus with 9 samples.

Results

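The genes described here are p53 (Trp53) and 30 of its regulators and targets, a given list of 31 symbols, of which each matched 1 of the 56289 gene identifiers in the table. RNA was sequenced from 9 libraries, 3 per group. The groups were untreated cells, cells given tumour necrosis factor alpha for 24 h (TNF), and cells given Wang Bi granules, a Chinese herbal preparation, with tumour necrosis factor alpha for 24 h (TNF plus WBG). All cells were labelled RAW264.7, a macrophage-like line of BALB/c origin, kept in the same medium. The labels give no dose, no time for the untreated cells and no word on whether replicates were separate cultures, so each p-value reflects the spread of these libraries alone, which may be technical, and treatment cannot be told apart from time in culture against untreated cells. Wang Bi granules were not given alone, and every WBG library also had TNF. Values are the authors' FPKM, fragments scaled for gene length and sequencing depth, a level per length that can be compared between genes.

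p53 is a transcription factor held low by Mdm2, a ubiquitin ligase that marks it for destruction and is itself a p53 target, with the relative Mdm4 blocking its activity. After DNA damage or other stress, kinases free p53 from Mdm2, and p53 then turns on genes that stop the cell cycle, repair DNA, limit metabolism or start apoptosis. Because p53 is governed mostly at the protein level, the RNA of its targets is the usual readout of its activity, while many of those targets also answer to other factors. Immortal lines can carry altered p53 pathways, and no protein was measured here.

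The sequence that p53 reads was looked for in the 250 bases before the annotated starts of the members, from RefSeq (GRCm38.p6). Of the 31 members, 24 had 30 such windows in that table. A full site of 20 bases, made of 2 adjacent 10-base elements of the p53 consensus with the C and G of each core kept and at most 3 mismatches, stood in 5 of the 30 windows (16.7%) and in 1.14% of all 32851 windows. The consensus reads the same on both strands. With up to 13 bases allowed between the elements, 10 of 30 member windows (33.3%) and 4258 of all windows matched, and the rule without a gap was chosen after that result was seen. The 5 windows are shown because they hold the members Cdkn1a, Ccng1 and Trp53, which rose with TNF, Sesn1, which fell, and Aen, which varied most, with the match in capitals and each window read 5′ to 3′ on the gene's strand:
Cdkn1a: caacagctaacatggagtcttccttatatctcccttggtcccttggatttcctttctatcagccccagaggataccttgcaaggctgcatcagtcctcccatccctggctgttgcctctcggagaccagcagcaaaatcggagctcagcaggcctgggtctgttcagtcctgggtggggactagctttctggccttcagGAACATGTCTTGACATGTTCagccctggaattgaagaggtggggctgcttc
Ccng1: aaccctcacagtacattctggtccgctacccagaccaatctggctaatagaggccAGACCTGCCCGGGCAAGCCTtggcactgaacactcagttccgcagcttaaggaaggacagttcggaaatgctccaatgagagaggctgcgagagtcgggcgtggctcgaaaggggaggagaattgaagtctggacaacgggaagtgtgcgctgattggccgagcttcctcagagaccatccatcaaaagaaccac
Trp53: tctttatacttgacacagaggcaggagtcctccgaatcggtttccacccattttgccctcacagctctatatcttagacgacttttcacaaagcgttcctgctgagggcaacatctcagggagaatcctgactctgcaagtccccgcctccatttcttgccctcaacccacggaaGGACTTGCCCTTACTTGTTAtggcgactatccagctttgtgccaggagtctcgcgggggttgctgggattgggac
Aen: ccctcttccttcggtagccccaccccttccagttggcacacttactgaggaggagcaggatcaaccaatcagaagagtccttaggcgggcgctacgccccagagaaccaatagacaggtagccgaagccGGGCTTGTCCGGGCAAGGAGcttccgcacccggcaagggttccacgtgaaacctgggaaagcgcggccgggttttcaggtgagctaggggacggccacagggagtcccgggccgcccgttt
Sesn1: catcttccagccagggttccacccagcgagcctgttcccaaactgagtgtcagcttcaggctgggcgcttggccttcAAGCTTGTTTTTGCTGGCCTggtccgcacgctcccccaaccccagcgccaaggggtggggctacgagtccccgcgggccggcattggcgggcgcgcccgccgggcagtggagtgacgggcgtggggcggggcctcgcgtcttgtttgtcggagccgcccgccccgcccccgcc
The Cdkn1a window (chr17:29090729-29090978, plus strand) lies before the upstream of its 2 listed starts and its match, 51 to 32 bases before that start, has 1 mismatch. The Ccng1 window (chr11:40755287-40755536, minus strand) has its match 195 to 176 bases before the start, also with 1 mismatch. The matches of Trp53 (chr11:69580109-69580358, plus strand), the second start of Aen (chr7:78895808-78896057, plus strand) and the second start of Sesn1 (chr10:41887189-41887438, plus strand) have 3 mismatches each. The NF-kB consensus of 10 bases, searched on both strands, matched 1 of the 30 member windows (3.33%), a window of Gtse1 with no p53 match, and 7.25% of all windows. Binding was not measured, so a match describes only the letters.

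The libraries did not show the labelled cell type. Of 15 macrophage markers, 2 had a mean of at least 1 FPKM, Cd14 and Cd68, and 4 were listed at 0 in every library (Ptprc, Itgam, Adgre1 and Tyrobp). The summed level of the 15 was 6.14 to 7.50 FPKM in untreated, 7.11 to 8.22 FPKM in TNF and 8.17 to 10.6 FPKM in TNF plus WBG libraries, and its part in the results was not tested. Of 12 fibroblast markers, 10 reached a mean of 1 FPKM, and the summed level of the 12 was 4261 to 4621 FPKM over all libraries. The others were Lum, listed at 0 in every library, and Thy1, at most 0.069 FPKM. Dcn had a mean of 2.29 FPKM. No lymphocyte, epithelial, endothelial, neutrophil or mast cell marker on the lists reached a mean of 1 FPKM. Depth, inferred from the steps of the values, was 18.9 to 26.0 M (mega) fragments. In these bulk libraries fewer cells of a type and less RNA per cell cannot be told apart.

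Members were expressed over a wide range. Perp, a membrane protein gene, was listed at 0 in all 9 libraries. The other 30 members passed the filter on low values (at least 1 FPKM in at least 3 libraries) and were tested. Trp53 itself had the highest mean over all libraries, 119 FPKM, followed by Ddit4 with 113.6 FPKM and Gadd45a with 71.7 FPKM, though in untreated libraries Ddit4 (114.8 ± 9.38 FPKM; SD, n = 3 here and throughout) stood above both. In those libraries Gadd45a (92.7 ± 1.34 FPKM) and Trp53 (90.0 ± 1.16 FPKM) lay close together without overlap. Cdkn1a, which encodes the cell cycle inhibitor p21, had a mean of 16.7 FPKM, below Mdm4 (49.1 FPKM) and Mdm2 (45.4 FPKM). The lowest tested members were Ddb2 (1.88 FPKM) and Pidd1 (2.36 FPKM).

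**Figure D1:**
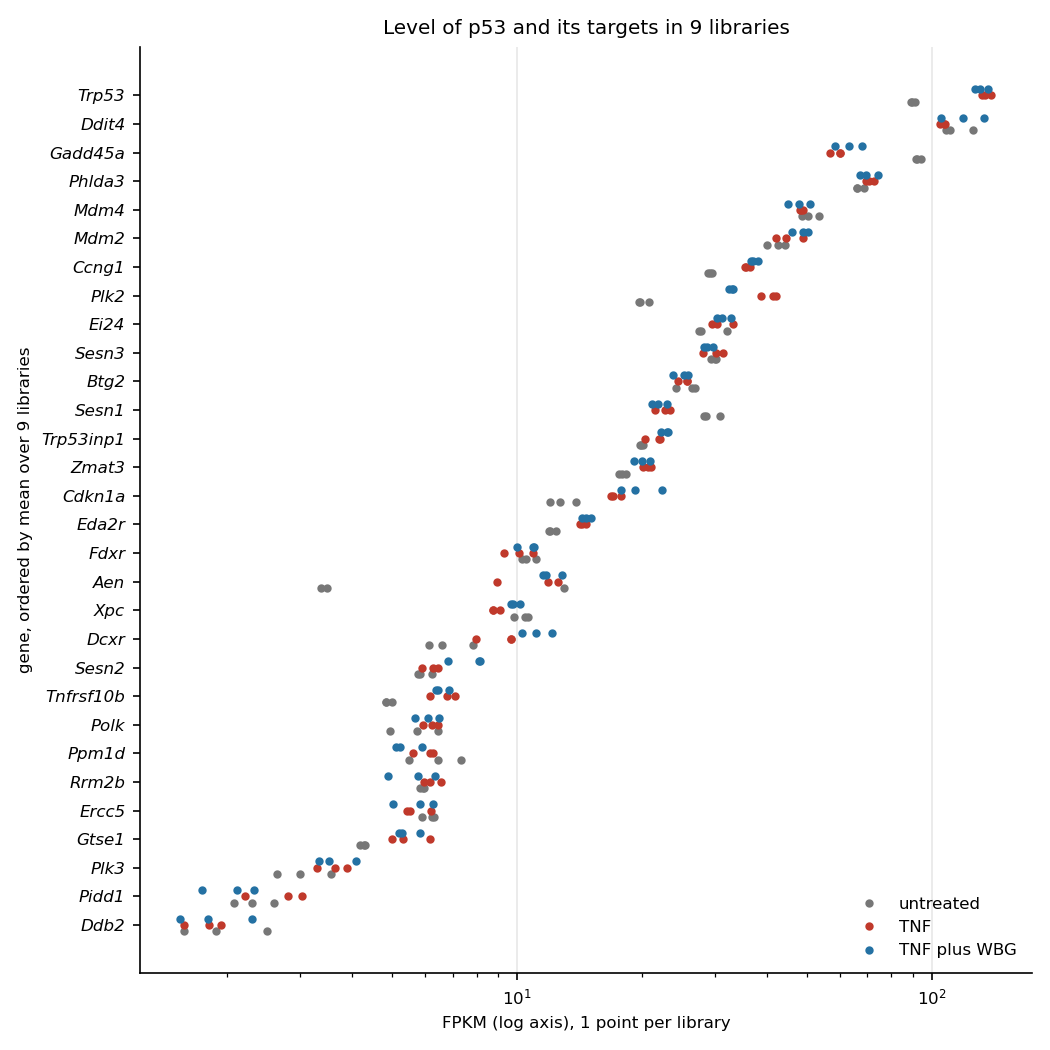
FPKM of the 30 members above 0 in each of 9 libraries (1 point per library, log axis), with genes ordered by their mean and groups by colour. Trp53 stands at the top with a mean of 119 FPKM and Ddb2 at the bottom with 1.88 FPKM, and the untreated points of Trp53, Plk2, Gadd45a and Sesn1 lie apart from the treated ones.

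The first comparison, TNF against untreated, was of the cytokine alone. With limma's test on log2(FPKM + 1), adjusted by Benjamini-Hochberg over all 13026 genes tested, 8 of the 30 tested members rose, 3 fell and 19 did not pass at an adjusted p under 0.05. Among all genes tested, 6.43% rose and 4.21% fell. The members were chosen with earlier results of these data known, so setting them beside all genes is no independent test. All TNF values lay above all untreated ones for 12 of the 30 members and for 2021 of the 13026 genes. They lay below for 4 members and for 1881 genes. The median log2 fold change of the 30 was 0.09, and that of all genes tested was 0.00. The rises were Trp53, 2 receptor genes of the TNF receptor family (Tnfrsf10b and Eda2r) and 5 genes listed under cell cycle and growth arrest. Those 5 were Plk2, Cdkn1a, Ccng1, Gtse1 and Zmat3. The falls were Gadd45a, Sesn1 and Xpc. Neither Mdm2 nor Btg2 passed. Each ± on a log2 value is the fit's standard error, and folds are ratios of mean FPKM.

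Of the core of the pathway, only Trp53 passed. It had 91.3, 89.6 and 89.0 FPKM in the untreated libraries and 139.4, 134.4 and 132.2 FPKM with TNF. The groups lie far apart and each is tight, and the level rose 1.504-fold (log2 fold change 0.58 ± 0.04, adjusted p = 1.52e-05, limma). Its pseudogene Trp53-ps was at most 0.16 FPKM in any library. Mdm2 had 42.5, 44.4 and 40.1 FPKM without and 44.5, 42.2 and 49.1 FPKM with TNF. These ranges overlap, and the log2 fold change of 0.09 had a 95% interval from -0.05 to 0.24 (adjusted p = 0.435). Mdm4 (log2 -0.07) and Ppm1d (-0.07), the phosphatase that removes activating marks from p53, did not pass either.

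Of the 8 members listed under cell cycle and growth arrest, 5 rose and 1 fell, beside 6.43% and 4.21% of all genes tested. Among the rises, the calls of Cdkn1a, Gtse1 and Zmat3 did not hold in every alternative. Plk2, a kinase of the polo family induced by stress and by p53, had 19.8, 20.8 and 19.7 FPKM in untreated libraries and 38.8, 41.4 and 42.2 FPKM with TNF. This doubling was the largest rise of the members that passed (2.03-fold, log2 fold change 0.98 ± 0.04, adjusted p = 2.36e-06). Cdkn1a had 12.7, 13.9 and 12.04 FPKM without and 16.8, 17.8 and 17.1 FPKM with TNF. The groups did not overlap (1.34-fold, log2 0.395 ± 0.08, adjusted p = 0.0174), and an antisense gene overlaps its exons. Ccng1, cyclin G1, which recruits a phosphatase to Mdm2, had 29.6, 29.3 and 28.9 FPKM without and 36.5, 35.8 and 35.5 FPKM with TNF (1.23-fold, log2 0.29 ± 0.04, adjusted p = 0.000891).

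The other rises of this group were those of Gtse1, a microtubule protein that carries p53 out of the nucleus, and of Zmat3, an RNA-binding zinc finger protein. Gtse1 had 4.27, 4.32 and 4.18 FPKM without and 6.19, 5.01 and 5.32 FPKM with TNF (log2 0.30 ± 0.08, adjusted p = 0.0417). Zmat3 had 18.4, 17.9 and 17.6 FPKM without and 21.01, 20.1 and 20.7 FPKM with TNF (log2 0.19 ± 0.05, adjusted p = 0.0334). In both the groups did not overlap. The antiproliferative gene Btg2 (log2 -0.03) and the kinase gene Plk3 (0.19) did not pass.

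Gadd45a, a growth arrest and DNA damage gene that binds p21 and activates stress kinases, went the other way. It had 91.9, 94.3 and 92.0 FPKM in untreated libraries and 56.9, 60.0 and 60.0 FPKM with TNF. The level fell by 0.64 on the log2 scale (SE 0.05, adjusted p = 9.31e-05), the largest fall among the members. The exons of Gadd45a overlap those of E230016M11Rik on the opposite strand, and reads of the pair may not have been separated.

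In the apoptosis group, Tnfrsf10b, the mouse receptor of the death ligand TRAIL, had 5.02, 4.84 and 4.84 FPKM without and 7.10, 6.17 and 6.78 FPKM with TNF (1.36-fold, log2 0.38 ± 0.06, adjusted p = 0.00518). Eda2r, a receptor of the TNF receptor family for ectodysplasin A2, had 11.98, 12.45 and 12.03 FPKM without and 14.4, 14.7 and 14.2 FPKM with TNF (1.19-fold, log2 0.23 ± 0.04, adjusted p = 0.0102). All TNF values of these receptor genes lay above all untreated ones. Trp53inp1 (log2 0.10), Phlda3 (0.08), an inhibitor of AKT, Ei24 (0.09) and Pidd1 (0.14), a scaffold of caspase 2, did not pass.

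Aen, a nuclease of apoptotic DNA breakdown, was the least even member. It had 3.50, 12.98 and 3.37 FPKM in untreated libraries, 8.98, 12.6 and 11.9 FPKM with TNF, and 11.5, 12.9 and 11.8 FPKM with TNF plus WBG. Untreated replicate 2 stood with the treated libraries, and the other untreated libraries stood well below them. Aen therefore did not pass (log2 0.89 ± 0.39, adjusted p = 0.206), but without untreated replicate 2 the log2 fold change was 1.44 (adjusted p = 0.000436).

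Of the 5 repair and 6 stress and metabolic members none rose and 2 fell, Xpc and Sesn1, beside 6.43% and 4.21% of all genes tested, and the call of Xpc was lost in 11 of the 19 alternatives. Xpc, which finds damaged DNA for nucleotide excision repair, had 9.84, 10.6 and 10.4 FPKM without and 8.77, 9.12 and 8.74 FPKM with TNF (log2 -0.20 ± 0.05, adjusted p = 0.0413). Sesn1, a sestrin that restrains mTOR, had 30.9, 28.2 and 28.6 FPKM without and 21.6, 23.4 and 22.7 FPKM with TNF, a fall by 0.36 on the log2 scale (SE 0.05, adjusted p = 0.0029). Its relatives differed from it in size of change: Sesn2 had a log2 fold change of 0.05 and Sesn3 of 0.00, and neither passed. Rrm2b, which supplies deoxynucleotides for repair, Ddb2, Polk, Ercc5, Ddit4 and Fdxr lay between -0.11 and 0.11 and did not pass. Dcxr, a sugar and carbonyl reductase, had 6.16, 7.83 and 6.59 FPKM without and 9.69, 7.96 and 9.67 FPKM with TNF (log2 0.36 ± 0.10, adjusted p = 0.0598).

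Omitting untreated replicate 1, untreated replicate 3 or TNF replicate 3 gave 5 rises in place of 8. The calls of Trp53, Plk2, Ccng1, Tnfrsf10b, Eda2r, Gadd45a and Sesn1 were kept in all 19 alternatives, while Cdkn1a lost its call when either untreated replicate 1 or 3, or else TNF replicate 2 or 3, was omitted (adjusted p up to 0.0653), and Gtse1, Zmat3 and Xpc in 11, 8 and 11 of the 19 (adjusted p up to 0.117, 0.107 and 0.124).

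**Figure D2:**
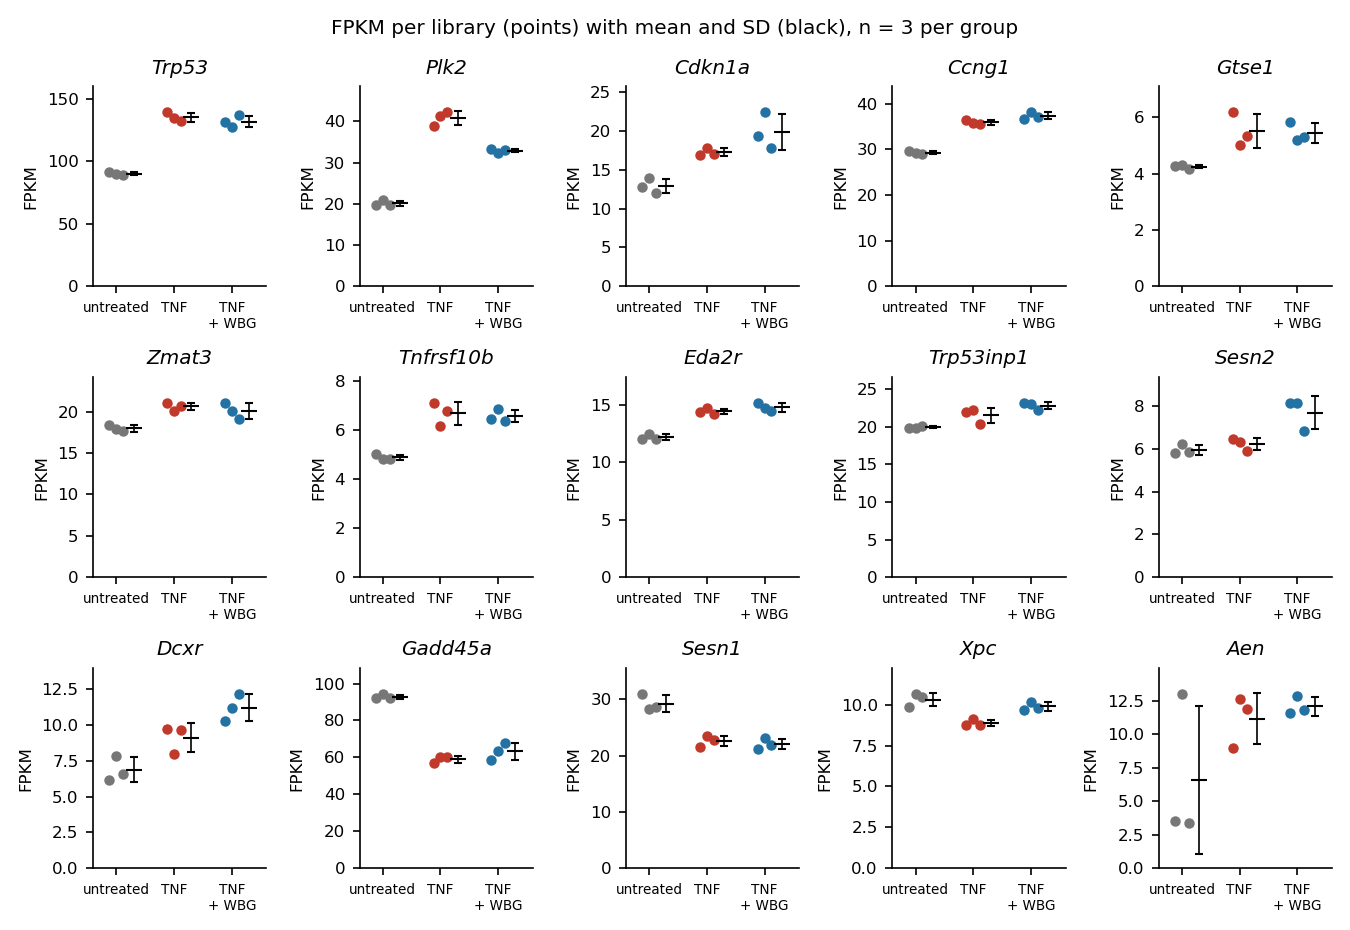
FPKM in each library (points, axes from 0) with mean and SD in black, n = 3 per group, for the 14 members that passed in any comparison and for Aen. Plk2 rose from 20.1 to 40.8 FPKM with TNF and had 32.9 FPKM with TNF plus WBG, Gadd45a fell from 92.7 to 59.0 FPKM, and 1 untreated point of Aen stands at 12.98 FPKM.

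The second comparison set cells given both agents beside cells given TNF. None of the 30 members passed (limma), under the main settings or any of the 19 alternatives, and of all genes tested 0.0998% passed. At an unadjusted p under 0.05 stood 5 of 30 members, and 1180 of all 13026 genes. The groups did not overlap for 6 of the 30 members, where 14.7% of all genes tested did not overlap. In 5 of these the WBG libraries were the higher (Ccng1, Trp53inp1, Xpc, Sesn2 and Dcxr), and in Plk2 they were the lower. Of all 13026 genes, the WBG libraries were the higher without overlap in 916 and the lower in 1005.

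Plk2 came closest to a call. Its 38.8, 41.4 and 42.2 FPKM with TNF stood beside 33.2, 32.4 and 33.0 FPKM with TNF plus WBG. The log2 difference was -0.30 ± 0.04 (95% interval -0.40 to -0.20, adjusted p = 0.07), and over the alternatives the adjusted p ran from 0.054 to 0.268. Sesn2, the sestrin induced by nutrient and oxidative stress, had 6.44, 6.30 and 5.92 FPKM with TNF and 8.12, 8.13 and 6.82 FPKM with TNF plus WBG (log2 0.27 ± 0.08, adjusted p = 0.417). For Dcxr the levels were 9.69, 7.96 and 9.67 FPKM with TNF against 10.3, 11.1 and 12.1 FPKM with the granules added (log2 0.27 ± 0.10, adjusted p = 0.504).

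Trp53 differed by a log2 of -0.04 between these groups (95% interval -0.12 to 0.05), and Gadd45a by 0.10 (-0.03 to 0.22). Cdkn1a had 19.3, 22.4 and 17.8 FPKM with the granules and a log2 difference of 0.19 (-0.001 to 0.38, adjusted p = 0.554). Leaving out Aen, whose error was large, the differences of the other 29 tested members lay between -0.30 and 0.27, and their 95% intervals between -0.53 and 0.51. Changes beyond those bounds are outside every one of these intervals.

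TNF plus WBG against untreated asks what the combined treatment did, and it uses the same untreated libraries as the first comparison. Here 9 of 30 tested members rose, 2 fell and 19 did not pass, where 5.52% of all genes tested rose and 3.67% fell. The median of the members was 0.10 and that of all genes 0.00. Trp53 had 131.1, 127.5 and 136.8 FPKM (log2 0.55 ± 0.04, adjusted p = 2.94e-05), beside a log2 of 0.58 with TNF. Plk2 had a log2 of 0.68 ± 0.04 (adjusted p = 2.32e-05) beside 0.98 with TNF, and Cdkn1a of 0.58 ± 0.08 (adjusted p = 0.00253) beside 0.395. Ccng1 rose by 0.34, Tnfrsf10b by 0.36 and Eda2r by 0.26 on the log2 scale. Gadd45a had 58.4, 63.3 and 68.1 FPKM, a fall by 0.55, and Sesn1 had 21.2, 23.1 and 21.9 FPKM, a fall by 0.39 (adjusted p = 0.00209).

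The 3 other rises were those of Dcxr, Sesn2 and Trp53inp1, a stress gene of autophagy and cell death. Dcxr was 1.63-fold above the untreated level (log2 0.64 ± 0.10, adjusted p = 0.00522). For Sesn2 the log2 fold change was 0.32 ± 0.08 (adjusted p = 0.0297), lost in 7 of the 19 alternatives (adjusted p up to 0.106). Trp53inp1 had 19.9, 19.8 and 20.1 FPKM in untreated libraries and 23.2, 23.0 and 22.3 FPKM with TNF plus WBG (log2 0.19 ± 0.05, adjusted p = 0.0337), lost in 8 of the 19 (up to 0.105). Gtse1 (log2 0.29, adjusted p = 0.0522), Zmat3 (0.15, 0.0816), Xpc (-0.05, 0.599) and Mdm2 (0.19, 0.11) did not pass. Whether a member answers differently to TNF with and without the granules is the second comparison, in which none passed. Aen (log2 1.01, adjusted p = 0.163) had a log2 of 1.56 without untreated replicate 2 (adjusted p = 0.000363).

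**Figure D3:**
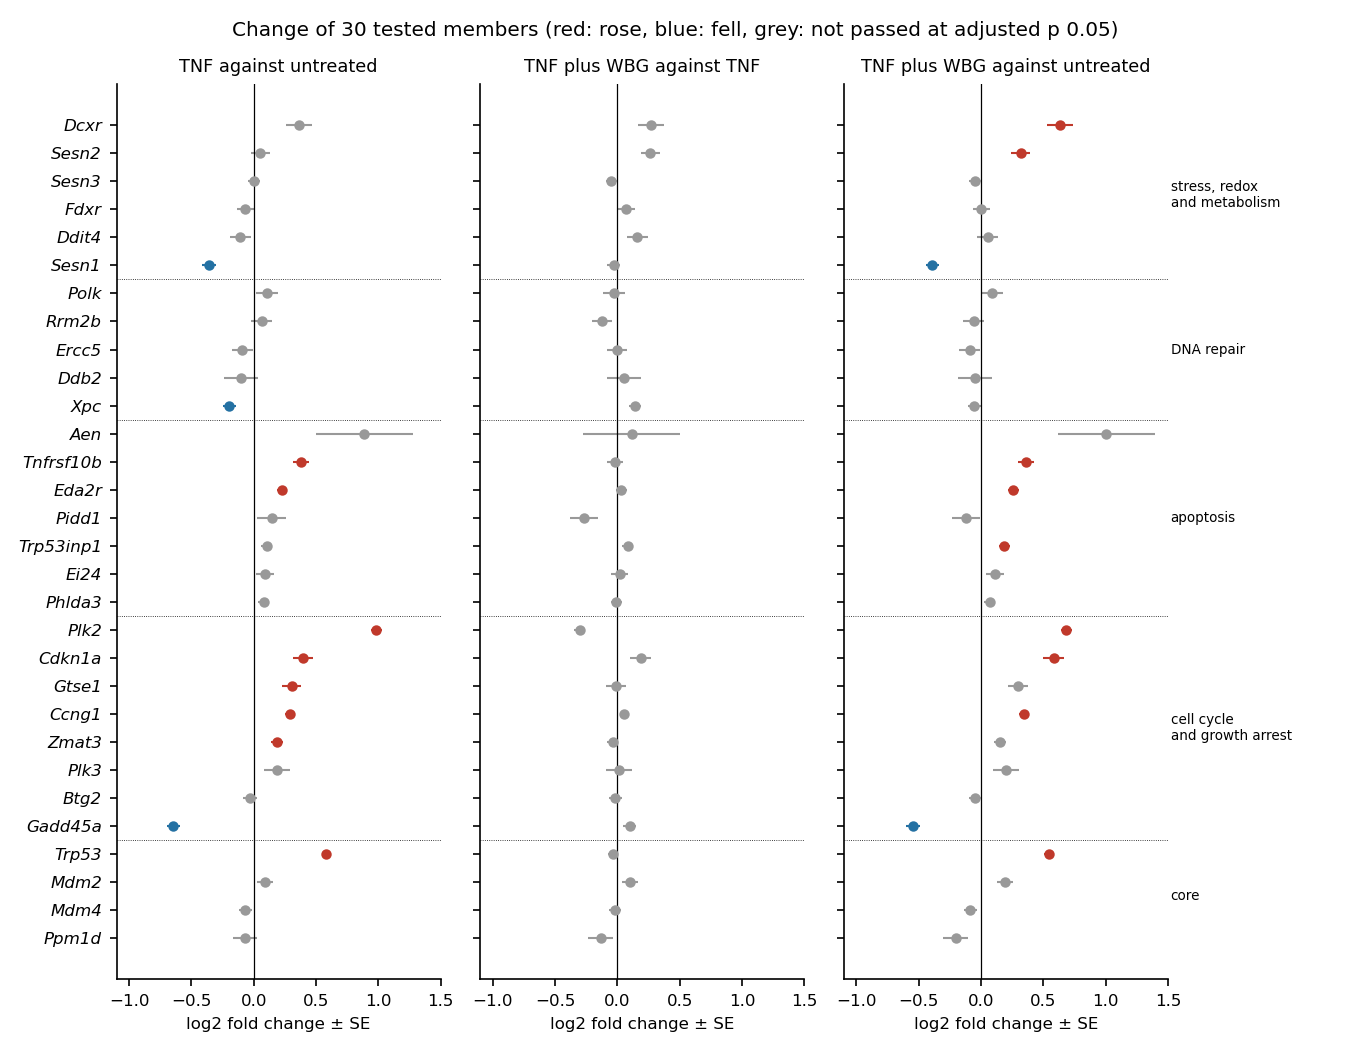
Log2 fold change with its standard error for the 30 tested members, grouped by role, in the 3 comparisons, with rises in red, falls in blue and members that did not pass in grey. With TNF 8 members rose and 3 fell, between TNF plus WBG and TNF none passed, and with TNF plus WBG against untreated 9 rose and 2 fell.

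Other genes of the pathway were taken from lists that were chosen with earlier results of these data known. Of 28 tested regulators of p53, 1 rose with TNF and none fell (median log2 -0.01), beside 6.43% and 4.21% of all genes tested. The rise was that of Chek2, a checkpoint kinase that phosphorylates p53, from 3.76 ± 0.43 to 5.03 ± 0.44 FPKM (adjusted p = 0.0413), and the count of 1 became 0 in 13 of the 19 alternatives, among them the omission of any library but untreated replicate 1, while 5 alternatives gave 1 fall. With TNF plus WBG against untreated none rose and 1 fell, beside 5.52% and 3.67% of all genes tested. The fall was that of Ppp1r13b, a cofactor that steers p53 to apoptosis genes (log2 -0.35, adjusted p = 0.0481). This count became 0 in 10 of the 19 alternatives, among them the omission of any library but TNF replicate 3. Trp63 and Trp73, the relatives of p53, were too low to test. Cdkn2a, which encodes p16 and the Mdm2 inhibitor Arf, lay at 153.7 ± 17.6 FPKM in untreated, 162.6 ± 6.2 FPKM in TNF and 165.1 ± 22.2 FPKM in TNF plus WBG libraries and did not pass in any comparison. It was singled out after its values were seen.

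Of 53 further p53 targets tested, 11 rose and 5 fell with TNF (median log2 0.09), beside 6.43% and 4.21% of all genes tested. The largest rises were those of the death receptor gene Fas, from 1.17 ± 0.15 to 6.03 ± 0.57 FPKM (log2 1.70, adjusted p = 6.5e-05), the tetraspanin gene Cd82, from 10.2 ± 4.02 to 33.0 ± 8.24 FPKM (1.64, 0.00707), and the survival gene Ier3, from 19.1 ± 0.63 to 31.8 ± 2.02 FPKM (0.70, 0.0106). Fas and Ier3 are also known targets of NF-kB. The largest falls were those of the growth factor binding protein gene Igfbp3 (log2 -0.47), the Kit ligand gene Kitl (-0.42) and Trp53i11 (-0.33). The test gave 3 falls on omission of TNF replicate 2 or of untreated replicate 2 or 3, and 2 on omission of TNF replicate 3. The proapoptotic genes Bax, from 65.8 ± 2.95 to 80.4 ± 1.40 FPKM (adjusted p = 0.00191), and Bbc3, which encodes Puma, from 21.1 ± 0.43 to 29.3 ± 1.06 FPKM (adjusted p = 0.000228), were also among the 11 and were picked after their values were seen.

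With TNF plus WBG against untreated 10 of these 53 targets rose and 6 fell, beside 5.52% and 3.67% of all genes tested. Fas (log2 1.71), Cd82 (1.40) and Ier3 (1.20) were again the largest rises. Igfbp3 (-0.59), Kitl (-0.43) and Trp53i11 (-0.40) were again the largest falls. The rises became 6 without untreated replicate 1, and the falls 3 without TNF plus WBG replicate 1. Between TNF plus WBG and TNF none of the 53 passed, and 1 fell without TNF plus WBG replicate 2.

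Cell cycle genes that p53 is known to lower through p21 and the DREAM repressor complex formed the next list. Of 25 such genes 2 rose with TNF, the helicase subunit gene Mcm5 (log2 0.31, adjusted p = 0.0468) and the topoisomerase gene Top2a (0.28, 0.0289), and none fell (median log2 0.13), counts near those given by the shares of all genes tested (6.43% rose and 4.21% fell). All TNF values lay above all untreated ones for 8 of the 25 and below for none, beside 2021 and 1881 of the 13026 genes. The count of 2 rises became 0 without any 1 untreated library or without TNF replicate 1 or 3. It became 1 without TNF plus WBG replicate 1 or 2. None of the 25 passed in either WBG comparison (medians -0.07 against TNF and 0.02 against untreated). Against untreated the count of rises became 1 when TNF replicate 1, TNF replicate 2 or the third WBG library was omitted. Of 16 DNA damage genes none rose and 1 fell with TNF, beside 6.43% and 4.21% of all genes tested. The fall was that of the repair gene Xpa (log2 -0.29, adjusted p = 0.0109). With TNF plus WBG against untreated, where 3.67% of all genes tested fell, Xpa fell by 0.22 on the log2 scale (adjusted p = 0.0416). This count of 1 became 0 or 2 in 10 of the 19 alternatives. It was 0 when untreated replicate 2, untreated replicate 3 or TNF replicate 2 was omitted, and likewise for the first and second WBG libraries. Of 10 NF-kB response genes listed as a check of the TNF treatment, Birc3 and Icam1 were too low to test. The other 8 all rose with TNF (median log2 1.82) and with TNF plus WBG against untreated (1.73). This list too was chosen with earlier results known, so it is no independent check.

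**Figure D4:**
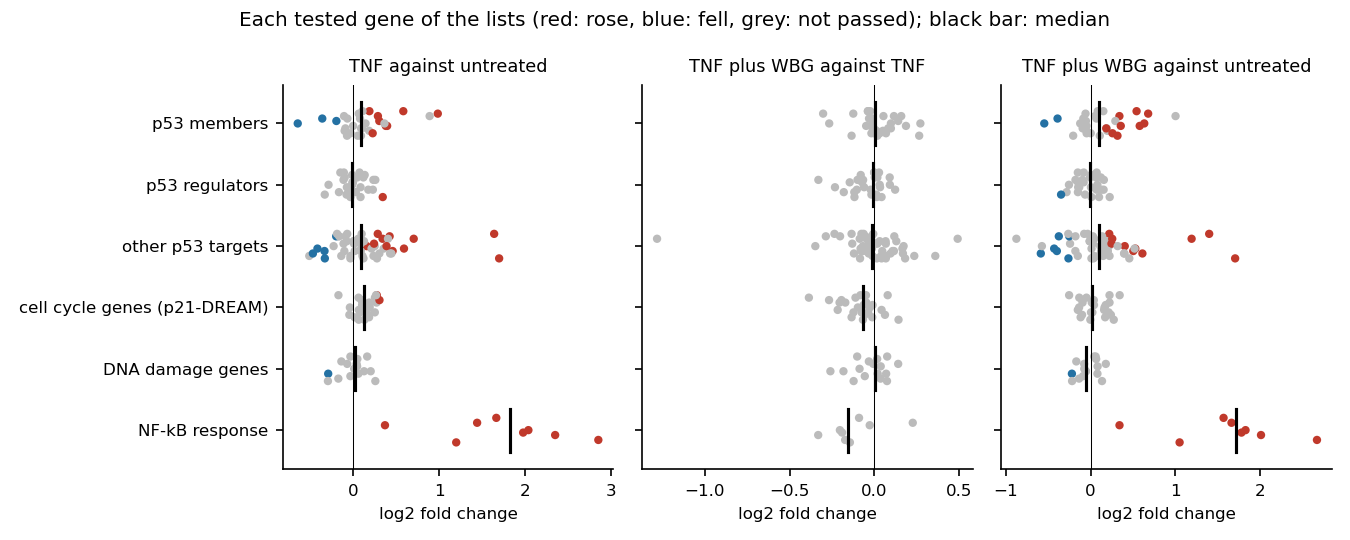
Log2 fold change of each tested gene of the p53 members and 5 further lists in the 3 comparisons, with rises in red, falls in blue, genes that did not pass in grey, and the median as a black bar. The median of the members with TNF is 0.09, near that of the 53 further targets (0.09), while the 8 tested NF-kB response genes have a median of 1.82.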

How the data were processed

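Poly-A RNA of 9 libraries was sequenced as read pairs on an Illumina NovaSeq, per the labels' protocols. The authors deposited 1 table of FPKM per Ensembl gene, and for its aligner, counting program, annotation and build the entry is: not given in the sources used here. Symbols came from GENCODE M21 (55144 identifiers matched, 1145 did not). Depth was inferred from single-exon genes, where FPKM times length fell within 0.02 of a whole step for 24.6 to 27.0% of values (4% if spread evenly), taking a step as 1 fragment. No count was derived.

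Genes with at least 1 FPKM in at least 3 libraries (13026) were fitted as log2(FPKM + 1) by limma 3.58.1 under R 4.3.3. The variance prior followed the level, all 9 libraries entered, and no covariate beside group was used. All tests are two-sided. A log2 fold change on this scale understates changes of low genes. Intervals are the 95% intervals of the fit. The fit was checked on simulated data.

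The members and lists were chosen with earlier results of these data known. All 31 members were described. From each list up to 3 called genes per direction with the largest change were named, and others are said to be picked after their values were seen. H2ax and Ptp4a1 did not match 1 symbol and were left out. Exons of Cdkn1a, Gadd45a, Plk3, Ei24, Rrm2b, Ddb2, Bax, Top2a and Xpa overlap another gene in GENCODE M21, and strand-specific counting is not stated. Alternatives were pseudocounts of 0.1 and 5, no filter, a mean of at least 5 FPKM, median-ratio and quantile scaling, a fit of only the 6 libraries compared, a flat or a robust variance prior, a replicate block and omission of each library. Tables were handled in pandas 2.3.3 and numpy 2.4.6 (Python 3.11.15), and plots drawn in matplotlib 3.10.9.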

Additional observations from a re-analysis of the deposited data

How the results depend on the processing

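With 1 library omitted in turn, the 8 member rises with TNF ranged from 5 to 8. The 837 rises among all genes tested ranged from 559 to 782, and the 549 falls from 346 to 514. The falls were 346 without untreated replicate 3, 357 without TNF replicate 2 and 360 without TNF replicate 3. For TNF plus WBG against TNF, the 4 genes that fell among all tested became 1 with only the 6 libraries compared, 2 with the replicate block, and 1 to 5 with 1 library omitted (1 without untreated replicate 1 and 2 without untreated replicate 3). The causes were not tested, beyond fewer libraries entering each omission. Over all tested genes, no pairing of libraries by the replicate numbers of the labels was seen. Deviations of same-numbered libraries from their group means correlated across genes at -0.07 to 0.11, and those of other pairs at -0.10 to 0.10. Such correlations cannot show a pairing limited to some genes. With the replicate block, 8 members rose and 2 fell with TNF, where Xpc lost its call (adjusted p = 0.0592), and 8 rose and 2 fell with TNF plus WBG against untreated, where Trp53inp1 lost it (adjusted p = 0.0577). No called member changed direction in any alternative. Without a filter Sesn2 lost its call against untreated (adjusted p = 0.0642), and Dcxr gained one with TNF without untreated replicate 2 or TNF replicate 2 (adjusted p = 0.0339 and 0.0395). The smallest called member changes were those of Zmat3 with TNF (log2 0.19) and Trp53inp1 with TNF plus WBG against untreated (0.19). Larger changes also went uncalled, such as those of Dcxr with TNF (0.36) and of Plk2 between TNF plus WBG and TNF (-0.30). A member without a call can thus have changed by more than 0.2 on the log2 scale.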
